A study of Mus musculus with 8 samples.

Results

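The shared distal regions were 4842 autosomal stretches of open chromatin, selected on the peak lists themselves. Each carried a strong peak in all 8 libraries and lay away from the promoters of protein-coding and lincRNA genes. Each list was cut to its 29829 strongest peaks, the length of the shortest list, ranked by the −log10 p-value of the peak caller, and overlapping peaks of the 8 libraries were merged into 53238 regions. A member had to be overlapped by a top peak in every library, and its strongest summit had to lie 3 to 100 kb from the nearest transcription start site (TSS) of a protein-coding or lincRNA gene. The members were 9.10% of all merged regions, 33.8% of the 14311 regions found in all 8 libraries and 15.0% of the 32173 autosomal distal regions. Because the rule asked for a top peak in every library, ranks of the members could not fall below the list limit in any group, and the presence of a peak in each group is not a finding.

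ATAC-seq, in which the Tn5 transposase cuts and tags accessible DNA, was applied to cells sorted from the bone marrow of females aged 4.5 months, of a mixed 129Sv4/Jae x B6 background. LSK+ cells (negative for lineage markers, with SCA-1 and c-KIT on the surface) hold the blood stem cells and early multipotent progenitors, whereas LSK− cells, which carry c-KIT but neither SCA-1 nor lineage markers, are mostly committed myeloid and erythroid progenitors. The cells came from WT mice and from XistΔ/Δ mice, in which both copies of a floxed Xist allele of 129Sv4/Jae origin were removed by Vav-iCre, a transgene on C57BL/6J that is active in cells of the blood lineage. The labels call the controls wild type, and the sources used here do not say whether those animals carried the floxed allele or the transgene. Each of the 4 groups held 2 libraries of about 10000 cells, and replicate 1 and replicate 2 were sequenced on different platforms in every group.

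Distal open regions are mostly enhancers, silencers or insulators: DNA elements that bind transcription factors and act on promoters over a distance. In blood cells such elements are typically occupied by ETS factors such as PU.1, by RUNX1 and by GATA factors, and the insulator protein CTCF holds chromatin loops at others. Xist RNA coats and silences one X chromosome in female cells, and the regions described here are autosomal.

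The lists held 29829 to 91590 peaks and XistΔ/Δ lists were longer than their WT partners (matched on sort and replicate number) in 4 of 4 pairs. A peak within 3 kb of an Xist TSS was present in 4 of 4 WT libraries and in 1 of 4 XistΔ/Δ libraries, LSK− replicate 2, where it stood at the 26.9 percentile of its list. Of 12 LSK− marker genes, 6 to 10 had a promoter peak in the LSK+ libraries and 11 to 12 in the LSK− libraries, whereas 10 to 12 of 12 LSK+ marker genes had one in every library. Ly6a, which encodes SCA-1, had a promoter peak in LSK+ WT replicate 1 and LSK− XistΔ/Δ replicate 1 and in no other library, and this promoter did not follow the sort. All 3 mature erythroid markers had a promoter peak in each LSK− library and 1 to 2 of them in the LSK+ libraries, and 1 to 4 of 8 lymphocyte markers and 10 to 14 of 14 endothelial and stromal genes had one in the libraries of both cell types. The part of such cells in the results was not tested. In a bulk sort, fewer cells with an open region and weaker opening in each cell cannot be told apart.

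Sequences of 200 bp around the strongest summit are shown for members on which the later results turn, read from the GRCm38.p6 (mm10) genome. Capitals mark the letters of 4 binding motifs on either strand. The letters AGGAAGT were used for the ETS factors, TGTGGTT for the RUNX factors, AGATAAG for the GATA factors and CCANNAGGG, where N is any base, for CTCF. Such a match is a description of the letters and not of binding. The first sequence is the member with the highest mean rank, the next 4 are the highest-ranked members that held each motif, and the last 4 are the highest-ranked among the 10 largest cell type differences and the 5 largest genotype differences in each direction.
Col19a1 region, chr1:24612653-24612852, plus strand: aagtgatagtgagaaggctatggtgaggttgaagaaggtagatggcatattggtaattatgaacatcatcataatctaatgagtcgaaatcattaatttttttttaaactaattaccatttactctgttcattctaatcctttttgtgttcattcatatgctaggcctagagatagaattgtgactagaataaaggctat
Foxj2 region, chr6:122810938-122811137, plus strand: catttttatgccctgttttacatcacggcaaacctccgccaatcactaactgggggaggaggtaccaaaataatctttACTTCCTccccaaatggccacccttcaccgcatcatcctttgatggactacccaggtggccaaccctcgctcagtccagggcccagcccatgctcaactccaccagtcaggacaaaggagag
Prss12 region, chr3:123508357-123508556, plus strand: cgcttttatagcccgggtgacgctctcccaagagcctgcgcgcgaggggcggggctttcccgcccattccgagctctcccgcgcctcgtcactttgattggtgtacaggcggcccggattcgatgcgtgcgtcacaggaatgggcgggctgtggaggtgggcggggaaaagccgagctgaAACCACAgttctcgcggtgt
Dlgap1 region, chr17:70488903-70489102, plus strand: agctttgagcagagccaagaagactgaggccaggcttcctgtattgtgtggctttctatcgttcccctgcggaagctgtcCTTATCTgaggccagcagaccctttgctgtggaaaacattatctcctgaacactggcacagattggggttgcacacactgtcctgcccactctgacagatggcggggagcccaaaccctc
Gm42906 region, chr5:151368537-151368736, plus strand: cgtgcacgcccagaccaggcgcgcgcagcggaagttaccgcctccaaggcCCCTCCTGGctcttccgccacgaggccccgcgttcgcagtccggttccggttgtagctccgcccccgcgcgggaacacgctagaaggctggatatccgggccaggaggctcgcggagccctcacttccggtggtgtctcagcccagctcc
Samd7 region, chr3:30765766-30765965, plus strand: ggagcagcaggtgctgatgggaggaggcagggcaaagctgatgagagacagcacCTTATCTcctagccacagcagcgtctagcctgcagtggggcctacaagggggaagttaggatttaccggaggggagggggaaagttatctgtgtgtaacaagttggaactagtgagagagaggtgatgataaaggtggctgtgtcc
Gm13391 region, chr2:6442421-6442620, plus strand: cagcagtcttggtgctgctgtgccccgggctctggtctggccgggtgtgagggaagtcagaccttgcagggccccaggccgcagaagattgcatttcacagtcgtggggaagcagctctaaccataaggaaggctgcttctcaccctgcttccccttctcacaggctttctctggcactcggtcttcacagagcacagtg
Gm48491 region, chr13:16314757-16314956, plus strand: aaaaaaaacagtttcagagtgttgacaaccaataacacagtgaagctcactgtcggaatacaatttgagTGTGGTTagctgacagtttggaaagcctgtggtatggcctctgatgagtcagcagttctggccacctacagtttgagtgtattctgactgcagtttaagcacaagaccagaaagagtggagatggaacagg
Calhm2 region, chr19:47133230-47133429, plus strand: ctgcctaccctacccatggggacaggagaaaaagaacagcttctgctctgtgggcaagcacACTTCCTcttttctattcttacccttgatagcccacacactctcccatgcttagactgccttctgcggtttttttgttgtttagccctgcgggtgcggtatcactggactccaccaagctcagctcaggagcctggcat
The Col19a1 region shows no capitals, and 86.5% of the 31-base words of its window also occur in the mitochondrial genome. It was the only one of the 4842 members with any such word. The Prss12 and Gm42906 windows are rich in CpG, with 22 and 23 CpG in 200 bp, and the Samd7 window has 2.

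Members lay a median of 19034 bp from the nearest TSS, with quartiles of 9674 and 36432 bp and a range of 3007 to 99885 bp. Of the 4842, 2420 (50.0%) had their strongest summit in an intron, 2218 (45.8%) between genes and 204 (4.21%) in an exon. Only protein-coding and lincRNA genes were counted, here and below. A member between genes can therefore lie at the promoter of another type of transcript. The nearest TSS belonged to a protein-coding gene for 3999 members and to a lincRNA gene for 843, and 2050 (42.3%) lay upstream of it. For 1936 members (40.0%) the summit was inside the gene with the nearest TSS. Another member lay within 10 kb of 574 members (11.9%), and every autosome held members, from 144 on chromosome 18 to 407 on chromosome 2. Level and width barely moved with position. The median of the mean percentile was 60.5 for the 1259 members at 3 to 10 kb, 59.2 for the 2025 at 10 to 30 kb and 58.9 for the 1558 at 30 to 100 kb. The median of the mean peak width was 547, 540 and 537 bp in the same order.

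A percentile of 100 stands for the strongest of the 29829 top peaks of a library and a percentile near 0 for the weakest. The mean percentile of a member over the 8 libraries had a median of 59.5, with quartiles of 47.0 and 72.0. The 8685 autosomal promoter regions open in all 8 libraries stood higher, at a median of 78.9, and the 427 regions more than 100 kb from a TSS stood at 57.1. The ranks of distal members were also less steady. The SD of the percentile over the 8 libraries had a median of 13.7 for members, 7.84 for promoter regions and 14.5 for the remote regions. Percentiles near 100 have less room to vary. In the highest of 4 equal groups of members by mean percentile the median SD was 8.57. The part of level in the contrast with promoter regions was not tested. Only 45 members (0.929%) were in the top 10% of the list in every library, against 1096 promoter regions (12.6%), and 1528 (31.6%) were in the top 50% in every library, against 5794 (66.7%). These values chose the members in part and are given without a test.

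The median percentile of the members was 68.9 in replicate 1 of LSK+ WT and 59.4 in replicate 2, and LSK+ XistΔ/Δ had 71.3 and 62.6. For the LSK− sort the WT values were 64.6 and 57.5, and the XistΔ/Δ values 54.7 and 58.7. The lowest of the 8 was LSK− XistΔ/Δ replicate 1, which was also the longest list. Both LSK− XistΔ/Δ libraries lay below all 4 LSK+ libraries, and the ranges of the other groups overlapped. Averaged by group, LSK+ WT had 64.1 ± 6.72 (SD, n = 2), LSK+ XistΔ/Δ had 67.0 ± 6.21, LSK− WT had 61.1 ± 4.96 and LSK− XistΔ/Δ had 56.7 ± 2.83. The LSK− library was lower in 4 of 4 pairs of the same genotype and replicate number, with differences of -4.30 and -1.81 percentile points among WT libraries, and -16.7 and -3.88 for XistΔ/Δ. The mean difference of -6.66 was of the size of the spread between replicates, 5.39, which includes the gap between replicate numbers. The XistΔ/Δ library was higher than its WT partner in 3 of 4 pairs, by 2.49 and 3.21 in LSK+ and by 1.14 in LSK− replicate 2. The difference was -9.88 points in LSK− replicate 1, and the mean genotype difference of -0.76 was far below the spread between replicates. With 2 libraries a group on different platforms, and members chosen with these ranks known, no p-value is given for these medians.

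**Figure D1:**
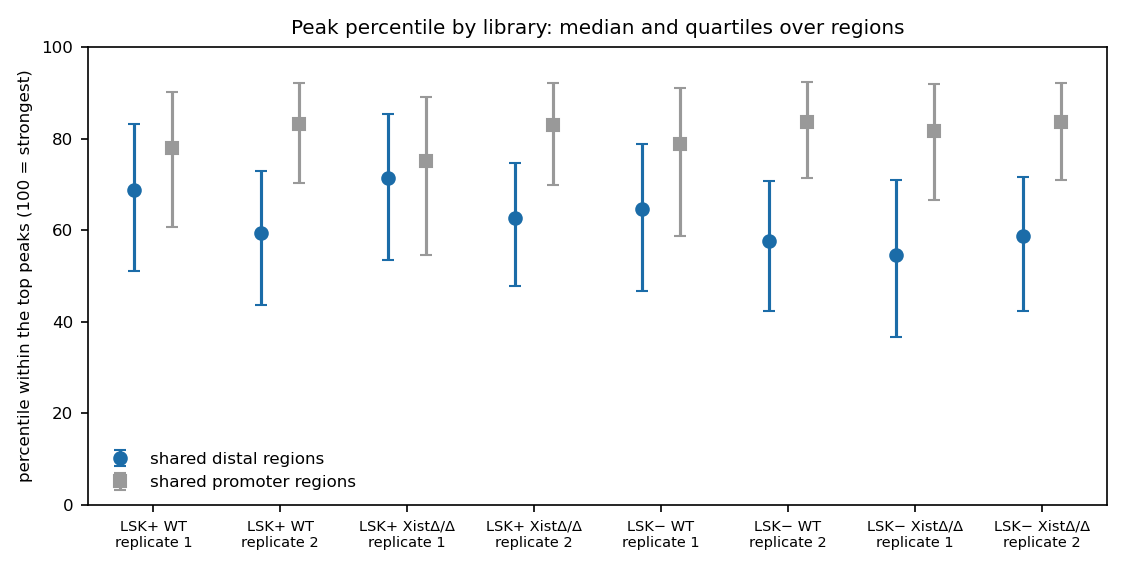
Percentile of the strongest top peak within each library's top list (y axis, 100 = strongest) for the shared distal regions (circles) and the shared promoter regions (squares), median with quartiles over regions, in the 8 libraries (x axis). Medians of the distal regions run from 54.7 to 71.3 and lie below those of the promoter regions in every library.

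Individual members moved more between libraries than their medians did. Between 2 libraries that differed only in genotype the percentile of a member moved by a median of 8.21 points on average over 4 pairs, with a range of 6.53 to 11.2. The corresponding shift was 12.4 (11.1 to 13.8) between the replicate numbers of one group and 13.7 (9.04 to 20.3) between cell types. Promoter regions moved by 4.16, 8.23 and 5.54 points over the same pairs. They also stood higher in the lists, and the part of level in these shifts was not tested. The ranges of the cell type and replicate shifts of distal members overlapped. Spearman coefficients over the 4842 members, which share library and depth within a pair, were 0.763 to 0.867 across genotype and 0.358 to 0.706 across cell type. Between the replicate numbers of one group they were 0.584 to 0.728, a range that overlapped the one across cell type.

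Peaks at the members were wider in replicate 1 than in replicate 2 of every group. With replicate 1 first, the median peak width was 638 and 432 bp for LSK+ WT, 673 and 507 bp for LSK+ XistΔ/Δ, 582 and 376.5 bp for LSK− WT, and 653 and 417 bp for LSK− XistΔ/Δ. No group of 2 was separated from another, because the gap between replicate numbers exceeded any gap between groups. The group means were 535 ± 146 bp (SD, n = 2), 590 ± 117 bp, 479 ± 145 bp and 535 ± 167 bp in the same order. Within a replicate number, the XistΔ/Δ library had the wider median in 4 of 4 pairs, by 35 and 75 bp in LSK+ and by 71 and 40.5 bp in LSK−. From 64.4% to 76.6% of members were wider in XistΔ/Δ than in the WT partner. The LSK− library had the narrower median in 4 of 4 pairs, with differences of -56 and -55.5 bp among WT libraries, and -20 and -90 bp for XistΔ/Δ. Both mean differences, 55.4 bp in size, were below the spread between replicates of 145 bp. That spread includes the gap between replicate numbers, which the differences within pairs leave out. The XistΔ/Δ list was the longer in each pair, and its part in the width difference was not tested. Distal peaks were narrower than promoter peaks in every library, and over members the mean width had a median of 541 bp against 766 bp at the promoter regions.

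**Figure D2:**
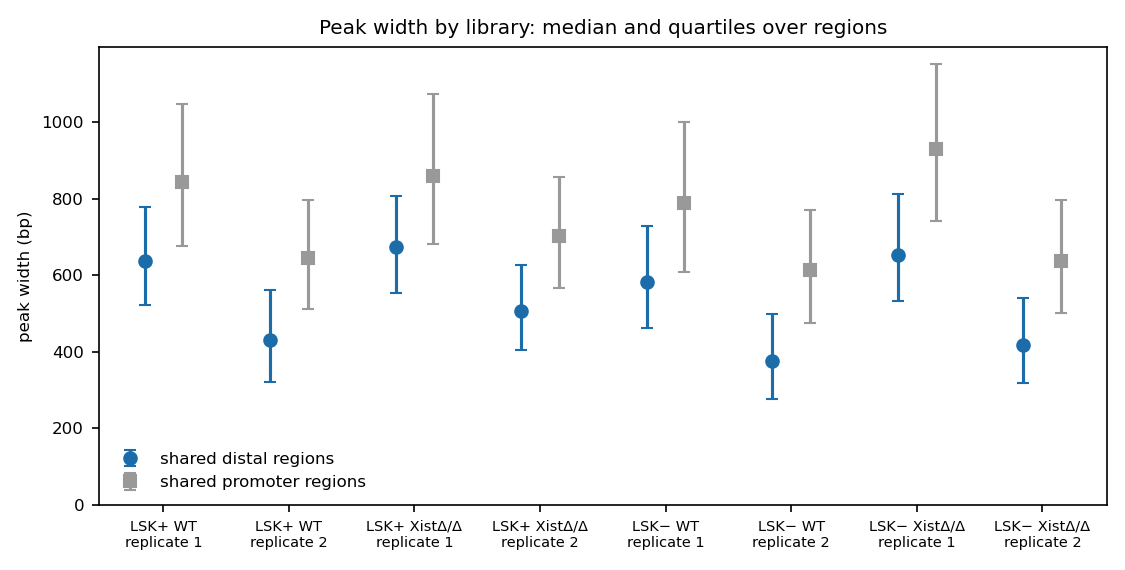
Width in bp (y axis) of the strongest top peak at shared distal regions (circles) and shared promoter regions (squares), median with quartiles over regions, in the 8 libraries (x axis). Replicate 1 is wider than replicate 2 in each group, and the distal medians run from 376.5 to 673 bp.

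The widest members by mean width were a region near Spen at chr4:141545624-141547357 (1444 bp), one near the predicted gene Gm45086 (1440 bp) and one near Tex44 (1418 bp), all between genes. The Spen region is of interest by name, since SPEN is a repressor recruited by Xist RNA, although the region itself is autosomal. In LSK+ it stood at 55.7, 78.6, 56.3 and 92.8 (WT replicates 1 and 2, then XistΔ/Δ), and in LSK− at 70.2, 94.5, 85.5 and 95.1. Replicate 2 stood higher in each of the 4 groups, and the genotype difference of 0.10 ± 0.13 (SE) on the log2 scale did not pass the test with the replicate number as a block (adjusted p = 0.784). The narrowest members lay near Stab2 (211 bp), in an intron of Nrxn2 (217 bp) and in an intron of 1110059E24Rik (233 bp). Width rose with percentile, with Spearman coefficients of 0.188 to 0.507 over the members of a library. Merged regions were up to 2539 bp long with a median of 764 bp, and the summits of the 8 libraries fell within 100 bp of each other in 3409 members (70.4%).

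The 10 members with the highest mean percentile were near Col19a1, Limd1, Chd2 (2 regions), Gm37350, Trappc9, Phf19, Foxj2, Zfp869 and Tlcd2. The Col19a1 region at chr1:24612385-24613183, between genes, was the strongest peak at a percentile of 100 in all 8 libraries, and it is the one whose window matches mitochondrial DNA. The Limd1 region at chr9:123461793-123462184 lies in an exon of Lars2, and 57.7% of the 31-base words of its window occur more than once in the genome. It stood at 97.04 in LSK+ WT replicate 2 and at 99.7 or above in the other 7 libraries. More than 50% of these words were repeated in 19 members in all. Of the other 8 regions, 7 had no repeated word (0%), and Gm37350 had 31.2%. The Chd2 region at chr7:73557985-73559215, between genes and 16877 bp from the TSS of a chromatin remodeler gene, stood at 99.1, 99.6, 99.2 and 99.7 in the LSK+ libraries and at 99.3, 99.9, 99.6 and 99.7 in the LSK− libraries. A second region in an intron of Chd2, chr7:73537410-73538350, ranged from 96.6 to 100. The Phf19 region, in an intron of a gene for a Polycomb-associated protein, ranged from 97.7 to 99.6, and the Foxj2 region from 97.9 to 99.5. None of the 10 passed the cell type or the genotype test.

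The 4842 members had 3799 nearest genes, of which 3033 had 1 member, 566 had 2, 139 had 3 and 50 had 4. The genes with the most members were Rere (7), which encodes a nuclear receptor corepressor, then Tex14, Tiam1 and Maml3 (6 each), and Smad7, Itsn1, Irf2 and Dnmt3a among the 7 genes with 5. Tiam1 codes for a RAC activator. Its highest-ranked member, at chr16:90177111-90177831, stood at 93.4, 85.2, 99.1 and 90.8 in LSK+ and at 97.4, 88.1, 92.2 and 91.3 in LSK−, with overlapping cell types. The mean percentiles of its 6 members ran from 36.5 to 92.2. In the test with the replicate number as a block, 5.38% of all regions tested and 11.05% of all members were higher in LSK+. So were 3 of the 6 Tiam1 members, all in introns. The largest of these differences was -0.78 on the log2 scale (adjusted p = 0.000394 with the block). Of the 5 members near Smad7, an inhibitor of TGF-beta signalling on chromosome 18, 3 were higher in LSK+ as well. The 6 members near Tex14 were all high, with mean percentiles of 62.3 to 95.5, and their LSK− minus LSK+ differences were all positive but small (0.05 to 0.24 on the log2 scale) and none passed. The 5 members of Irf2, an interferon-responsive factor that keeps stem cells quiescent, ranged from 55.4 to 89.1. The 5 members of Dnmt3a, the de novo DNA methyltransferase often mutated in blood cancers, ranged from 60.7 to 87.3. None of the members near Rere, Irf2 or Dnmt3a passed the cell type test.

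The first test asked whether the fold enrichment at the summit, quantile-normalised and in log2, differed between LSK− and LSK+ cells. limma was fitted on all 14311 regions open in all 8 libraries, and p-values were adjusted by the Benjamini-Hochberg method over all of them. Without a block for the replicate number, 0 of 14311 regions (0%) and 0 members passed an adjusted p of 0.05, although 627 members (12.9%, against 7.14% of all regions) had an unadjusted p below 0.05. The replicate numbers share a sequencing platform across groups, and the deviations of same-numbered libraries correlated at 0.591 to 0.746 in all 6 pairs of groups. With the replicate number as a block, 217 members (4.48%) were higher in LSK− cells, against 3.19% of all regions tested, and 535 members (11.05%) were higher in LSK+ cells, against 5.38%. The median log2 difference was -0.06 over members and 0.02 over all regions, with a median SE of 0.13 for a member. Differences of called members ran from 0.18 to 1.02 towards LSK− and from -0.27 to -1.03 towards LSK+. The counts depended on single libraries: without one library they ranged from 49 to 278 towards LSK− and from 217 to 628 towards LSK+, lowest without LSK+ XistΔ/Δ replicate 1 in both directions. Towards LSK− the count was 124 without LSK+ XistΔ/Δ replicate 2, 79 and 92 without LSK− WT replicates 1 and 2, and 113 and 127 without LSK− XistΔ/Δ replicates 1 and 2. Towards LSK+ it was 264 without LSK+ XistΔ/Δ replicate 2, 234 without LSK− WT replicate 2 and 258 without LSK− XistΔ/Δ replicate 1.

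Ranks were also compared without a model. All 4 LSK− percentiles were above all 4 LSK+ percentiles for 271 members (5.60%), against 5.02% of all 14311 regions, and all 4 LSK+ percentiles were above the LSK− ones for 774 members (16.0%), against 7.63%. Of these, 128 and 355 were also called with the replicate block. The widths of called members are given beside those not called. The median peak of the 217 members higher in LSK− was wider in LSK− than in LSK+ WT for both replicate numbers (607 against 566 bp and 414 against 343 bp). In XistΔ/Δ it was wider in replicate 1 (707 against 608 bp) and narrower in replicate 2 (434 against 493 bp). The 535 members higher in LSK+ were wider there in all 4 pairs, for instance 656 against 542 bp and 476 against 332 bp in WT. The 4090 members not called were also wider in LSK+ in all 4 pairs, at 638 against 584 bp and 429.5 against 380 bp in WT and at 673.5 against 655 bp and 506 against 421 bp in XistΔ/Δ.

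**Figure D3:**
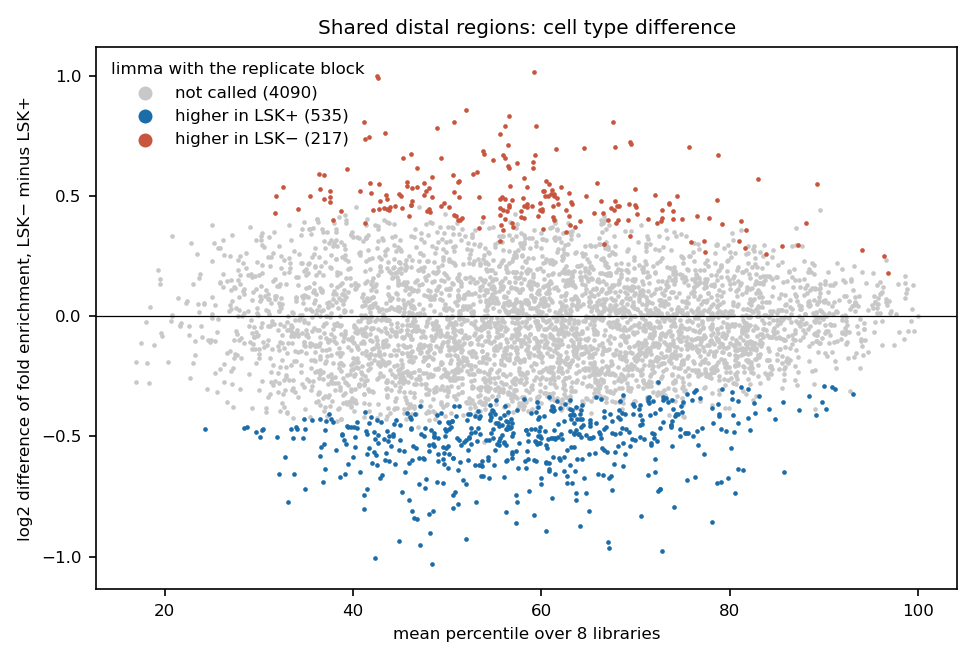
Log2 difference of quantile-normalised fold enrichment between LSK− and LSK+ (y axis) against the mean percentile over the 8 libraries (x axis) for each of the 4842 shared distal regions. Coloured points passed limma with the replicate block (217 higher in LSK−, 535 higher in LSK+); none passed without it.

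Of the members higher in LSK−, the largest difference was in an intron of Crem, a cAMP-responsive transcription factor gene on chromosome 18. Here the LSK+ libraries stood at 3.41, 38.9, 36.5 and 37.6 (WT replicates 1 and 2, then XistΔ/Δ) and the LSK− libraries at 98.1, 83.7, 93.5 and 81.9. The cell types did not overlap, and the log2 difference was 1.02 ± 0.12 (SE, adjusted p = 1.79e-05 with the block). A region at chr3:37659542-37660277, between genes and nearest to Spry1, an inhibitor of receptor tyrosine kinase signalling, stood at 2.70, 12.8, 9.27 and 8.61 in LSK+ and at 92.4, 70.2, 80.1 and 65.0 in LSK−. This was among the clearest shifts, low in every LSK+ library and high in every LSK− library, at 0.99 ± 0.13 (adjusted p = 2.35e-05). The Wnt3 region lies in an intron of the neighbouring gene Nsf at chr11:103852378-103853164 and stood at 3.12 to 19.4 in LSK+ and 64.5 to 86.7 in LSK−. The region near Ifit1, an interferon-induced gene, stood at 7.28 to 37.8 in LSK+ and 73.6 to 98.0 in LSK− (0.83 ± 0.11, adjusted p = 2.35e-05). The Samd7 region, whose window printed above holds the GATA letters, stood at 49.4, 57.5, 46.9 and 38.8 in LSK+ and at 92.7, 79.4, 96.0 and 79.9 in LSK− (0.81 ± 0.12, adjusted p = 9.5e-05). The other 5 of the 10 largest were near Laptm5, Raver2, Exoc6, Rtf2 and Dmrtb1, with differences of 0.79 to 0.86. The Raver2 region lies in an intron of Jak1, the kinase of many cytokine receptors, and the Dmrtb1 region in an intron of Glis1.

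Of the members higher in LSK+, the largest difference was at chr6:90713000-90713598 in an intron of Iqsec1, an exchange factor for ARF GTPases. It stood at 85.3, 64.9, 78.3 and 65.2 in LSK+ and at 46.1, 32.9, 1.82 and 12.2 in LSK−, with no overlap, and fell by 1.03 ± 0.14 on the log2 scale (adjusted p = 2.35e-05). The region in an intron of Ell, an elongation factor gene fused to KMT2A in some leukemias, stood at 71.4, 67.7, 81.5 and 67.8 in LSK+ and at 7.53, 22.6, 10.5 and 9.96 in LSK−. The cell types did not overlap, and the difference was -1.01 ± 0.14 (adjusted p = 2.35e-05). The Gm13391 region, in an exon of Usp6nl, stood at 98.0, 82.7, 95.2 and 83.2 in LSK+ and at 62.4, 69.0, 26.9 and 65.4 in LSK−, and its printed window holds none of the 4 sets of letters. A region in an intron of Maml2, a NOTCH coactivator gene, stood at 76.6 to 92.5 in LSK+ and 10.2 to 48.8 in LSK− (-0.89 ± 0.12, adjusted p = 2.35e-05). The Rai1 region, in an intron of a chromatin-binding gene mutated in Smith-Magenis syndrome, stood at 71.0 to 89.2 in LSK+ and 4.88 to 30.3 in LSK−. The other 5 of the 10 largest were near Mtf1, Vcpip1, Fam160b1, Gm29509 and Morn1, with differences of -0.97 to -0.93. All 20 regions moved the same way in 4 of 4 pairs, which the naming rule required. Since nothing passed without the block, the rule was applied to the fit with it after the values were seen.

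Among 50 transcription factors of blood stem and progenitor cells, 31 had at least 1 member, 57 in all. With the block, 4 of the 57 were higher in LSK− and 5 in LSK+, and the rest passed in neither direction. The shares were 3.19% and 5.38% of all regions tested, and 4.48% and 11.05% of all members. The genes with the most were Foxp1 and Irf2bp2 (4 each), Runx1 and Nfia (3 each). The strongest Runx1 member, chr16:92800768-92802189, in an intron of the master regulator of blood formation, stood at 97.8, 89.99, 96.7 and 87.3 in LSK+ and at 92.6, 82.2, 94.2 and 82.6 in LSK−, and did not pass (-0.06 ± 0.10, adjusted p = 0.784). The 2 called members near Cbfa2t3, a corepressor gene of stem cells, both fell in LSK−. One at chr8:122665084-122666017 stood at 93.0, 83.6, 97.6 and 83.3 in LSK+ and at 67.4, 56.5, 37.7 and 59.8 in LSK− (-0.73 ± 0.14, adjusted p = 0.00115), without overlap. Fli1, an ETS factor gene, had one member in each direction: an intronic one higher in LSK− (0.44 ± 0.14, adjusted p = 0.0417) and one between genes higher in LSK+ (-0.42 ± 0.12, adjusted p = 0.0211). Members near Bach2, Tcf12 and Runx2 were higher in LSK−, and members near Nfia and Irf2bp2 were higher in LSK+.

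Of 39 genes of cytokine receptors and their signalling, 16 had 21 members, of which 1 was higher in LSK− and 5 in LSK+. The shares to set beside them are the same 3.19% and 5.38% of all regions, and 4.48% and 11.05% of all members. Members near Cish, Tgfbr2, Ifnar2 and Csf2ra were among those higher in LSK+, with log2 differences of -0.47 to -0.42, and the called member near Socs3, a feedback inhibitor of cytokine signalling, was higher in LSK− (0.54 ± 0.15, adjusted p = 0.0192). The strongest member near Cxcr4, the receptor that keeps stem cells in the marrow, stood at 82.2 to 98.6 in LSK+ and 68.9 to 84.7 in LSK− and did not pass (-0.24 ± 0.12, adjusted p = 0.231).

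Marker genes of the sorted cells had few members, and the counts of called members in these short lists stand beside 3.19% (higher in LSK−) and 5.38% (higher in LSK+) of all regions. Over all members these shares were 4.48% and 11.05%. Of 12 LSK+ markers, 5 had 8 members (Meis1 3, Flt3 2, Hlf, Cd34 and Esam 1 each), and the called one, near the stem cell marker Esam, was higher in LSK− (0.39 ± 0.11, adjusted p = 0.0279). It stood at 7.02, 53.0, 48.3 and 51.9 in LSK+ but at 90.7, 68.6, 74.95 and 60.4 in LSK−, opposite to the direction its list's name gives. Of 12 LSK− markers, 3 had 1 member each (Cebpe, Csf1r and Mpo) and none passed. The Cebpe member, near a granulocyte factor gene, stood at 75.9 to 87.6 in LSK+ and 84.6 to 95.2 in LSK− (0.14 ± 0.11, adjusted p = 0.458). Of 22 granule and monocyte genes, 6 had 6 members, with none called, and of 25 erythroid and megakaryocyte genes, 5 had 7 members. Of these, 1 was higher in LSK+ and 1 in LSK−, the latter near the platelet glycoprotein gene Gp9 (0.47 ± 0.14, adjusted p = 0.0272). The Nfe2 member, 3029 bp from the TSS of the megakaryocyte factor gene, stood at 96.4 or above in all 8 libraries. Of 22 lymphoid genes, 6 had 7 members, and 1 near Tcf7, a T-lineage factor gene, passed, at 23.6 to 44.7 in LSK+ and 46.8 to 74.7 in LSK− (0.46 ± 0.12, adjusted p = 0.0155).

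Of 33 chromatin regulators, 13 had 21 members, and the 2 called were higher in LSK+, against 5.38% of all regions and 11.05% of all members. One of them, near the corepressor gene Rcor1, stood at 88.6, 77.5, 88.7 and 80.1 in LSK+ and at 51.7, 52.4, 38.7 and 67.2 in LSK−, without overlap (-0.54 ± 0.11, adjusted p = 0.00281). Of 27 cell cycle and survival genes, 8 had 9 members. The 2 called, in introns of Ccnd3 and Bcl2, were higher in LSK−, against 3.19% of all regions and 4.48% of all members. Of 14 endothelial and stromal genes, 2 had 1 member each (Nes and Kdr), with none called. The median log2 difference over the members of a list ran from -0.16 (endothelial and stromal genes) to 0.16 (lymphoid genes), against 0.02 over all regions tested and -0.06 over all members.

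The genotype question was whether members differed between XistΔ/Δ and WT cells. Without the block, 0 of 14311 regions (0%) and 0 members passed in either cell type or over both, and 64 members (1.32%, against 1.64% of all regions) had an unadjusted p below 0.05. With the block, 2 members were higher in XistΔ/Δ, against 0.028% of all regions (4 of 14311), and 1 was higher in WT, against 0.00699% (1 of 14311). With the block and no mean-variance trend these counts were 0 and 0, and with normal scores of rank 1 and 0. The count towards XistΔ/Δ was 249 without LSK+ WT replicate 1, 23 without LSK− XistΔ/Δ replicate 1, 1 without LSK+ WT replicate 2, and 0 without LSK+ XistΔ/Δ replicate 2, LSK− WT replicate 2 or LSK− XistΔ/Δ replicate 2. The count towards WT was 17 without LSK+ WT replicate 1, 3 without LSK− XistΔ/Δ replicate 1 and 0 without any one of the other 6 libraries. Median log2 differences were 0.04 over members and -0.01 over all regions. All 4 XistΔ/Δ percentiles were above all 4 WT percentiles for 10 members, against 0.363% of all regions, and below them for 20, against 0.475%, shares of 0.207% and 0.413% of the members.

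The 2 members higher in XistΔ/Δ lay near Gm9049 and in an intron of Tgm4, a transglutaminase gene. The Gm9049 member at chr10:118370384-118370943 stood at 26.6 and 42.9 in LSK+ WT against 54.9 and 61.9 with the deletion. Among LSK− libraries it stood at 56.2 and 61.7 against 64.5 and 76.5, WT first, so genotypes were separated within each cell type but not over both (0.62 ± 0.10, adjusted p = 0.00772 with the block). The Tgm4 member stood at 86.3 and 46.0 against 95.5 and 79.7 in LSK+ and at 85.1 and 60.5 against 74.8 and 70.7 in LSK−, WT first. In LSK− its ranks overlapped, although the fold difference had one sign in 4 of 4 pairs (0.52 ± 0.10, adjusted p = 0.0421). The member higher in WT lay 3536 bp from a TSS of Vav1, a signalling gene of blood cells, at chr17:57275144-57276041. It stood at 64.2 and 72.6 in LSK+ WT against 28.6 and 50.6 in XistΔ/Δ, and at 62.5 and 71.9 in LSK− WT against 50.1 and 48.5 in XistΔ/Δ. All 4 WT libraries were above all 4 XistΔ/Δ libraries, and the log2 difference was -0.76 ± 0.14 (adjusted p = 0.0256). Vav-iCre is driven by regulatory DNA of the same gene, and the part of the transgene or of strain differences in this value was not tested.

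By size among members with one sign in 4 of 4 pairs, the 5 largest differences towards XistΔ/Δ were near Olfr649, Mtfr2, Gm9049, Wwp2 and Gm48491 (0.57 to 0.66), of which that of Gm9049 passed. The Gm48491 member, whose window printed above holds the RUNX letters, stood at 63.6 and 36.1 against 77.6 and 64.8 in LSK+ and at 68.1 and 24.9 against 58.6 and 64.2 in LSK−, WT first (0.57 ± 0.12, adjusted p = 0.061). The 5 largest towards WT were near Vav1, Gatad2a, Pptc7, Adgre1 and Calhm2 (-0.76 to -0.44), of which that of Vav1 passed. The Adgre1 member, chr17:57344113-57344861, lies close to the Vav1 member at chr17:57275144-57276041, so these 2 of the 5 are neighbours. It stood at 88.1 and 71.0 against 82.5 and 31.6 in LSK+ and at 56.5 and 54.8 against 46.9 and 19.4 in LSK−, WT first. The part of the transgene or of strain differences was not tested here either. The Calhm2 member, whose window holds the ETS letters, stood at 92.9 and 79.7 against 88.5 and 75.2 in LSK+ and at 86.4 and 78.4 against 46.9 and 71.9 in LSK−.

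Within LSK+ cells, 18 members were higher in XistΔ/Δ with the block, against 0.196% of all regions tested (28 of 14311), and 0 were lower, against 0%. Within LSK− cells no member passed in either direction with the block, against 0% of all regions, and 220 members (4.54%, against 4.05% of all regions) had an unadjusted p below 0.05. The LSK+ count rested on the scaling and on single libraries. It was 0 with the block and no mean-variance trend and 1 with the block and normal scores of rank. It was 0 without LSK+ WT replicate 2, the shortest list, or without LSK+ XistΔ/Δ replicate 2, and 361 without LSK+ WT replicate 1. It was 1 without LSK+ XistΔ/Δ replicate 1, and 5, 9, 69 and 51 without LSK− WT replicates 1 and 2 and LSK− XistΔ/Δ replicates 1 and 2. The largest difference was at chr4:97543843-97544461 between genes, 40429 bp from a TSS of E130114P18Rik. In LSK+ it stood at 18.2 and 4.70 for WT against 67.4 and 49.3 for XistΔ/Δ (1.14 ± 0.18, adjusted p = 0.00531). In LSK− the order was turned, at 74.6 and 63.95 for WT against 40.5 and 26.9 for XistΔ/Δ (-0.45 ± 0.18, adjusted p = 0.999). It was the only member whose genotype difference itself differed between cell types with the block (-1.58 ± 0.25, adjusted p = 0.00688), against 0.00699% of all regions, and none did without it (0%), nor with the block and either no trend or normal scores. Without LSK+ WT replicate 1 that count was 73 towards a lower difference in LSK− and 1 towards a higher one, without LSK− XistΔ/Δ replicate 2 it was 5, and it was 0 without LSK+ XistΔ/Δ replicate 1 or 2 or LSK− WT replicate 1 or 2. A member in an intron of Myl4 stood at 57.8 and 43.2 in LSK+ WT against 82.8 and 72.7 in its XistΔ/Δ partners (0.80 ± 0.15, adjusted p = 0.0148). A member in an intron of Slc7a5, an amino acid transporter gene, stood at 50.1 and 66.0 in LSK+ WT against 74.95 and 85.4 in its XistΔ/Δ partners, and at 83.0 to 89.5 over the LSK− libraries. The other members were near Tmem119, Gm31562, Pdzd2, Gna14, Gm11415, Ccdc93, H60b, Phf21b, Tgm4, Stxbp4, Gm9049, Tubd1, 4930526H09Rik, Cldn1 and Ncoa7, with log2 differences of 0.49 to 0.99.

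**Figure D4:**
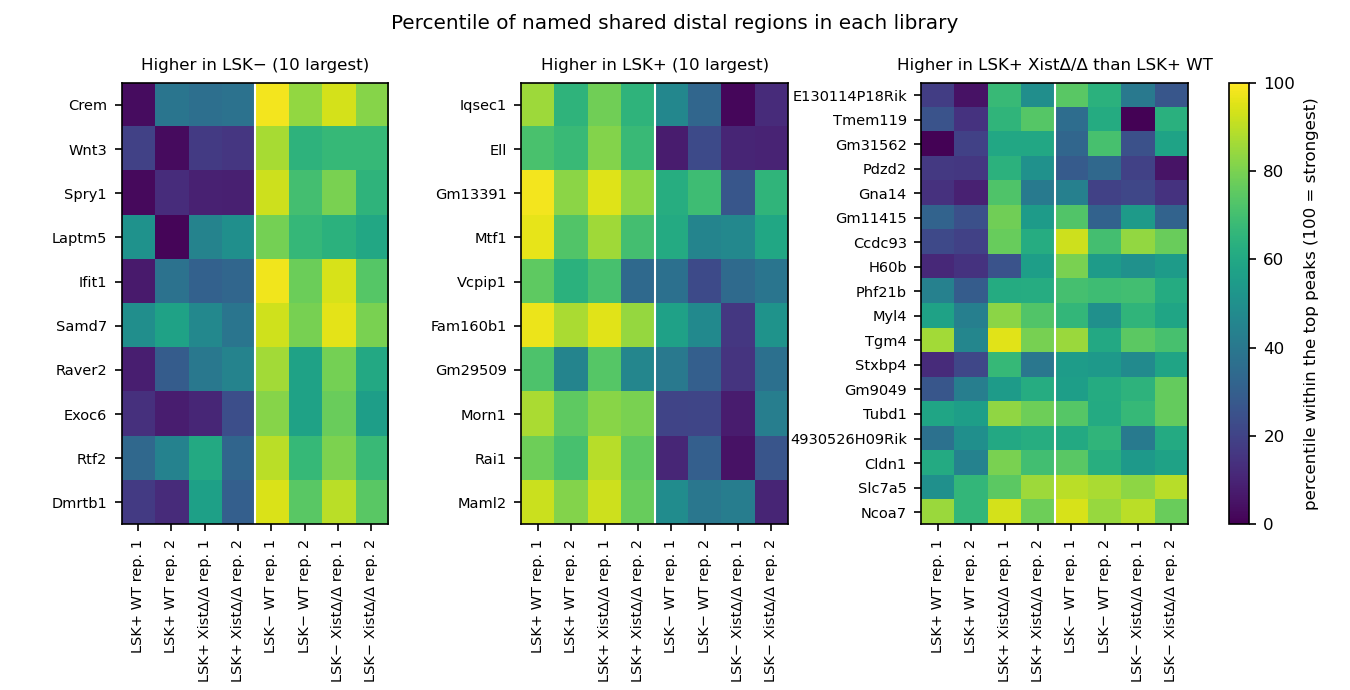
Percentile within each library's top list (colour, 100 = strongest) of the 10 members with the largest differences towards LSK− (left) and towards LSK+ (middle) and of the 18 members higher in LSK+ XistΔ/Δ than in LSK+ WT with the replicate block (right). Rows are regions named by the nearest TSS and columns are the 8 libraries; the white line divides LSK+ from LSK−, and Spry1 runs from 2.70 to 12.8 in LSK+ and from 65.0 to 92.4 in LSK−.

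The windows of 200 bp around the strongest summits were searched on both strands for the letters of 14 motifs. Of the members, 1154 (23.8%) held the ETS letters AGGAAGT, 798 (16.5%) the RUNX letters TGTGGTT, 319 (6.59%) the GATA letters AGATAAG and 394 (8.14%) the CTCF letters CCANNAGGG. Over all 53238 merged regions the shares were 16.4%, 10.8%, 6.39% and 6.67%. In 9684 windows 1000 bp to either side of the members' summits they were 5.12%, 4.99%, 2.62% and 2.91%, so all 4 were more frequent at the summit than beside it. Of the 14 sets, the NF-Y letters (20.5% against 23.1%) and the YY1 letters AAGATGG (2.23% against 4.62%) were less frequent at the summit. Mean GC content was 52.9% in the members' windows and 46.0% in those beside them, and its part in these shares was not tested. The ETS and RUNX shares fell with the number of libraries that held a distal region, from 23.8% and 16.5% in members to 20.8% and 14.2% for 4 to 7 libraries and 17.0% and 11.6% for 1 library. The GATA share did not follow this order, at 6.59%, 7.77% and 7.75%, and it was 9.71% for 2 or 3 libraries. High ETS and RUNX shares were not particular to the members. The 427 regions open in all 8 libraries and more than 100 kb from a TSS had higher shares of ETS (30.9%), RUNX (19.9%) and GATA (8.20%). Their CTCF share was lower than that of members, at 5.855%. Promoter regions open in all 8 libraries held fewer of these letters (8.09% ETS, 3.29% RUNX, 1.14% GATA) and more of those of CpG-rich promoters. The Sp/KLF letters GGGCGG were in 61.1% of promoter windows and 14.7% of members, the ETS letters with CpG, CCGGAAG, in 18.02% and 3.45%, and the NF-Y letters ATTGG in 36.2% and 20.5%. Members had a mean GC content of 52.9% and 4.98 CpG per window, against 63.6% and 16.5 at the promoter regions. Of the ETS matches nearest the summit, 69.8% lay within 50 bp of it. Matches of different sets may share end bases. The AP-1 letters TGANTCA were in 10.8% of members and 7.91% of all merged regions.

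**Figure D5:**
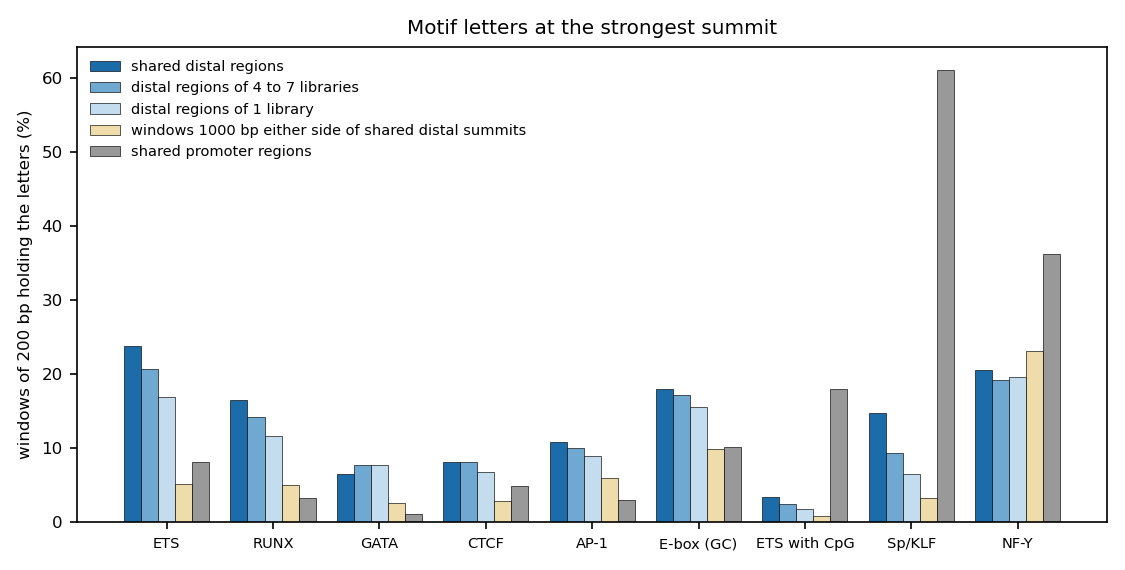
Share of 200 bp windows (y axis, %) that hold the letters of 9 motifs (x axis) in shared distal regions, distal regions of 4 to 7 libraries and of 1 library, windows 1000 bp beside the members' summits, and shared promoter regions. ETS letters are in 23.8% of the members and 5.12% of the windows beside them, and Sp/KLF letters in 61.1% of promoter windows.

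Motif letters also differed between the members called in each direction. The GATA letters were in 16.6% of the 217 members higher in LSK−, in 4.49% of the 535 higher in LSK+ and in 6.33% of the 4090 not called. The ETS letters were in 19.8%, 32.0% and 23.0% in the same order, the RUNX letters in 15.2%, 18.5% and 16.3%, and the AP-1 letters in 9.22%, 14.8% and 10.4%. Seen from the motif, 36 of the 319 members with GATA letters (11.3%) were higher in LSK− and 24 (7.52%) in LSK+. The shares were 4.48% and 11.05% over all members, and 3.19% and 5.38% over all regions tested. The GATA share towards LSK+ was thus below that of all members. Of the 1154 with ETS letters, 43 (3.73%) were higher in LSK− and 171 (14.8%) in LSK+. Of the 196 members with both ETS and RUNX letters, 3 were higher in LSK− and 30 in LSK+. The Sp/KLF letters were in 17.5% of members higher in LSK− and 7.66% of those higher in LSK+. Median genotype differences stood at 0.01 to 0.07 for members with each of the 14 sets of letters. These shares are descriptions, and no test of enrichment was made.

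Along the rank order, when members were split into 4 equal groups by mean percentile, the highest group held more CpG than the lowest, with 6.36 against 4.31 CpG per window and Sp/KLF letters in 21.6% against 11.9%. Promoters of transcripts other than protein-coding and lincRNA were not removed from the members, and their part in this rise was not tested. RUNX letters rose from 13.8% to 18.2%, CTCF letters fell from 9.99% to 7.27%, and ETS letters stood at 21.7%, 25.9%, 25.8% and 22.0% from the lowest group to the highest. Called members were fewer in the highest group (33 towards LSK− and 89 towards LSK+) and in the lowest (50 and 107) than in the 2 groups between them (59 and 168, and 75 and 171). Each group held 1210 or 1211 members, and the shares called were 3.19% and 5.38% of all regions tested and 4.48% and 11.05% of all members. The split used percentiles of the same 8 libraries, which leaves members of the highest group less room to differ. The median SD of the percentile was 8.57 there, and 16.6, 16.2 and 13.2 from the lowest group to the third. The median width was 617 bp in the highest group and 484 bp in the lowest.

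The limit on list rank was close for many regions. The members nearest inside it were near 4921524J17Rik, Klhl2 and Gm17509, whose weakest peaks ranked 29822 and 29818 in LSK− WT replicate 2 and 29813 in LSK− XistΔ/Δ replicate 2. The regions nearest outside it were near Crispld2, Gm28231 and Sdcbp, with ranks of 29830 in LSK− WT replicate 2, 29830 in LSK+ XistΔ/Δ replicate 1 and 29840 in LSK− WT replicate 1. Of 2175 autosomal distal regions with a top peak in 7 libraries, 873 (40.1%) lacked one in LSK+ WT replicate 2, whose whole list was used, and 1124 had a weaker peak in the missing library. At the lower limit of distance, 13 members had summits up to 100 bp beyond 3 kb from the nearest TSS. Another 17 regions open in all 8 libraries fell short of 3 kb by up to 100 bp and were not members.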

How the data were processed

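ATAC-seq was made from LSK+ and LSK− cells of WT and XistΔ/Δ females, 2 libraries a group. Per the submitters' processing notes and the study's methods, the authors trimmed reads with Trim Galore, aligned them to mm10 with Bowtie2 2.3.5.1, filtered them with SAMtools 1.10 and called peaks per library with MACS2 2.2.7.1; DiffBind is also named. Removal of duplicates, a Tn5 shift and a control track are not given for these lists in the sources used here. The deposited lists give each peak's fold enrichment (a ratio) and its −log10 p-value at the summit. The lists hold no read depth, and the depths that the study lists in its supplement were not used here. List length (29829 to 91590 peaks) is given instead, and deeper libraries can give longer lists and wider peaks.

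Peaks on chromosomes 1 to 19 and X were ranked by −log10 p-value, merged where they shared at least 1 bp, and set against 47350 TSS positions of 21755 protein-coding and 5305 lincRNA genes (GRCm38.p6, which is mm10). limma 3.58.1 (R 4.3.3) was fitted to quantile-normalised log2 fold over the 14311 regions of all 8 libraries, with a mean-variance trend and Benjamini-Hochberg adjustment at 0.05. Same-numbered libraries shared a sequencing platform per the study's supplement, and their deviations from the group means correlated at 0.591 to 0.746 in all 6 pairs of groups. These correlations describe a part shared by same-numbered libraries and do not show that the libraries were paired by animal. The fit with the replicate number as a block is given beside the fit without it. Data were simulated for the LSK− minus LSK+ comparison over 14311 regions with 200 changed. Without a simulated replicate effect, the fit without the block recovered 0% of log2 changes of 0.5 and 60.5% of changes of 1. With the replicate effect and residual spread of the blocked fit, the fit with the block recovered 27.5% and 93.5%. The 2 fits were run on different simulated data, so these values do not measure the gain from the block. Motifs were counted with Python 3.11.15, numpy 2.4.6 and pandas 2.3.3.

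Named regions were the 10 of highest mean percentile and those that passed the genotype tests. The 10 largest cell type and 5 largest genotype differences each way, with one sign in 4 of 4 pairs, were named too. Others were the genes with most members and the widest and narrowest members. From each gene list, the highest member was named for the up to 4 genes with the most members. Called members of listed genes, and the later Tiam1 and Smad7 members, were named after their values were seen. The members and gene lists were chosen with earlier results of these data known. The labels do not say that libraries came from separate animals, so p-values measure only the spread between these samples. Alternatives were another ranking, depth of list, coverage, TSS set, scaling, trend, window, the block and leaving out each library. The blocked fits with other scalings or a library left out, and single replicate numbers, were added after seeing the data. Results for some members are not reported here.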

Additional observations from a re-analysis of the deposited data

Results flagged for a closer look

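The region between genes near E130114P18Rik on chromosome 4 stood out because its genotype difference differed between cell types by the interaction term of limma with the replicate block, at -1.58 ± 0.25 (SE) on the log2 scale, with an adjusted p of 0.00688. It was higher in XistΔ/Δ in both LSK+ pairs and lower in both LSK− pairs. It did not pass without the block, with the block and no mean-variance trend, with the block and normal scores of rank, or with the block when LSK+ XistΔ/Δ replicate 1 or 2 or LSK− WT replicate 1 or 2 was left out. It was 1 of 14311 regions tested.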

How the results depend on the processing

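A list cut to 14914 peaks left 1527 members and a coverage of 50% of the region left 1738. The counts of members called were 0 without the replicate block, also with any 1 library left out. With the replicate block they were 217 and 535 for cell type (LSK− and LSK+ higher), 2 and 1 for genotype (XistΔ/Δ and WT higher), 18 within LSK+ and 1 for the interaction. With the block and normal scores of rank they were 332 and 957, 1 and 0, 1, and 0. With the block and no trend the genotype, LSK+ and interaction counts were 0, and with median centring the genotype counts were 4 and 3 and 2 members were lower in LSK+ XistΔ/Δ. Leaving out 1 library in the blocked fit gave 49 to 278 and 217 to 628 for cell type, 0 to 249 and 0 to 17 for genotype, 0 to 361 higher and 0 to 16 lower within LSK+, and 0 to 73 lower and 0 to 1 higher for the interaction.

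The genotype difference in median percentile, -0.76, turned to 0.75 when peaks were ranked by fold and to 2.18 in the replicate 2 libraries alone, and ran from -3.135 to 1.62 with 1 library left out (1.62, 1.44, 0.99 and 0.24 without LSK+ WT replicate 1, LSK+ XistΔ/Δ replicate 2, LSK− WT replicate 1 and LSK− XistΔ/Δ replicate 1). The cell type difference ran from -9.04 to -4.29. The width difference by genotype ran from -3.625 (without LSK− XistΔ/Δ replicate 1) to 114 bp, and by cell type from -114 to 3.625 bp (without LSK− XistΔ/Δ replicate 2). The causes were not tested. For 48 named results under 624 alternatives, 584 kept direction and side of the threshold, 40 passed with the block and 0 reversed. Named differences were picked by the blocked fit or by one sign in 4 of 4 pairs. These counts are therefore partly fixed by the naming rule and do not measure robustness. Among the main counts and medians, which were not picked in this way, 8 alternatives reversed the direction. Read depth limits weak peaks, and depth was not used here.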
